A study of Mus musculus with 4 samples.

Results

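The regions described here had an ATAC-seq peak in both libraries of fibroblasts given an siRNA against Chst7 (siChst7) and no peak in either library given a control siRNA (siControl). They were selected on the peak calls themselves. All peaks on chromosomes 1 to 19 and X were merged where they shared at least 1 bp, and a region was kept when each siChst7 library held a peak of at least 200 bp with a deposited −log10 q of at least 5, while siControl held no peak of any strength. This left 541 of 90202 regions, or 0.600% of them. The calls, strengths and widths of these peaks are therefore a description of the choice and not a result about the siRNA.

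The study used iMGT-Myh6-eGFP-MEF, a line of mouse embryonic fibroblasts in which doxycycline (1 μg/mL) induces the heart transcription factors Mef2c, Gata4 and Tbx5, together called MGT. Its name carries an eGFP reporter of Myh6, the gene of the alpha heart myosin. The 4 libraries, 2 per siRNA, were all taken at day 1 of MGT induction, so both groups carry the induced factors and differ by the siRNA alone, as far as the labels say. The labels call the replicates biological without saying whether the cultures were separate, and no library without MGT or at another time was analysed here. The cell line is a single source for all 4 libraries, and the knockdown of Chst7 cannot be read from ATAC-seq peaks.

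ATAC-seq uses the Tn5 transposase to cut and tag DNA that is not packed tightly on nucleosomes. Open sites over gene starts are often shared between cell types, whereas sites far from gene starts, many of them enhancers, tend to differ between cell states. Chst7 is a sulfotransferase that adds sulfate to chondroitin chains, which fibroblasts put on the proteoglycans of their surface and matrix.

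Of 28 fibroblast genes, 21 had a region called in all 4 libraries within 1 kb of a gene end, as did 8 of 10 smooth muscle genes, 5 of 9 neural, 25 of 59 heart, 5 of 12 skeletal muscle, 2 of 8 immune, 2 of 8 epithelial and 2 of 9 endothelial genes. The fibroblast markers were thus mostly open at their ends, as were those of smooth muscle, and the neural and muscle lists were in part. The share was 75% for the fibroblast list, and 57.1% to 95.7% for lists of matrix and signalling genes, which mark no cell type. The share over all genes was not measured, so these counts do not identify the cells. The deposited lists held 73902 and 75696 peaks for siControl replicates 1 and 2, and 74402 and 66165 peaks for siChst7 replicates 1 and 2. The fold values of weak peaks fell on steps of whole reads, which gave a relative read density of 0.964 for siControl replicate 2, 1.02 for siChst7 replicate 1 and 0.757 for siChst7 replicate 2, each against siControl replicate 1. The shallowest library was thus one of the 2 that had to hold a peak.

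In 3 of the 521 regions on chromosomes with listed start sites the open stretch reached into the 250 bases before a start site listed in RefSeq (GRCm38.p6, the assembly of mm10), out of 32851 such windows. One belongs to Ccr1, a chemokine receptor gene of white blood cells, and the other two to the long non-coding RNA genes Gm35048 and Gm16907. They are shown because these are the members that overlap such a window. Each is written 5′ to 3′ on the strand of its gene and ends at the base before the start site, and capitals mark the bases that lie inside the region called only with siChst7.
Ccr1, minus strand, chr9:123968693-123968942: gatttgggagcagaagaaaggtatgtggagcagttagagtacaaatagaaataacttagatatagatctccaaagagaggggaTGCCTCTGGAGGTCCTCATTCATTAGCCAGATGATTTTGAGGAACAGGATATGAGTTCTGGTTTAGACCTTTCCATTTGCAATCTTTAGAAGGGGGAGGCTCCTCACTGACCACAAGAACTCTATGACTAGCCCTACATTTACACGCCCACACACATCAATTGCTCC
Gm35048, plus strand, chr1:90506476-90506725: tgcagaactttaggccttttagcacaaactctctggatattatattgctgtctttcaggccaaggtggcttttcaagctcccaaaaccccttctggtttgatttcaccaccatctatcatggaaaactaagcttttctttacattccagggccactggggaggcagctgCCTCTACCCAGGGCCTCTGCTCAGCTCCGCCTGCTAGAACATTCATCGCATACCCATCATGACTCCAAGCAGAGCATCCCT
Gm16907, minus strand, chr13:63297148-63297397: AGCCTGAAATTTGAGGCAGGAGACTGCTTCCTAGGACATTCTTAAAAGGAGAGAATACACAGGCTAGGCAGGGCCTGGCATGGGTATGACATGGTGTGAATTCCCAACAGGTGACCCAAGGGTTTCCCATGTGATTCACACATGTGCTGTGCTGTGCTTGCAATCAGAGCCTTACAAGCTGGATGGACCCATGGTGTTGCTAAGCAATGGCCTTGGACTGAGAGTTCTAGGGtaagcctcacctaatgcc

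The Ccr1 region covered 167 of these bases, the Gm35048 region 81 and the Gm16907 region 232. The windows had a GC content of 43.6%, 48.8% and 50.4%, where the median of all listed windows was 52.4%. Short motifs were searched on both strands: GATAA for GATA factors, TGANTCA for AP-1, GGAATG for TEAD, AGGTGT for T-box factors, and the MEF2 motif by its consensus. The Ccr1 window held none of them. The Gm35048 window held 1 TEAD motif, outside the capitals, and the Gm16907 window held 1 AP-1 motif, inside the capitals. Over all windows, 22.6% held the GATA motif, 6.75% the AP-1 motif, 12.6% the TEAD motif, 11.8% the T-box motif and 0.508% the MEF2 motif. A match is a run of letters and was not tested as a bound site.

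At Ccr1 the region (chr9:123968600-123968859) lay over the gene end and its start site, and it was the only region of any library within the gene and 5 kb on each side. The number of reads stacked at the summit, recovered from the deposited fold enrichment and p-value, was 19 in siChst7 replicate 1 and 16 in replicate 2. The local background was 2.03 and 1.48 reads, the genome-wide value of each library. The nearest siControl peaks lay 43.0 kb away in both libraries. At Gm35048 (chr1:90506645-90506952) 22 and 14 reads were recovered, and at Gm16907 (chr13:63297166-63297452) 23 and 19 reads, the latter over a higher local background of 6.20 and 4.55 reads.

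As a group the regions were weak. The recovered number of reads at the summit ranged from 13 to 150 with a median of 20 in siChst7 replicate 1, and from 11 to 117 with a median of 16 in replicate 2. It came out whole, within 0.05 reads, for 540 of the 541 peaks in replicate 1 and for all 541 in replicate 2. The median fold enrichment over the local background, as deposited by the authors, was 5.29 in replicate 1 and 5.36 in replicate 2. In the complete list of each library, ordered from the strongest −log10 q, the median member stood 79.6% of the way down in replicate 1 and 83.5% in replicate 2. At the genome-wide background the smallest stack that entered a list was 9 reads in siControl replicate 1 and 8 in siControl replicate 2. A region without a siControl peak may therefore still hold reads there, and how many was not measured.

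**Figure D1:**
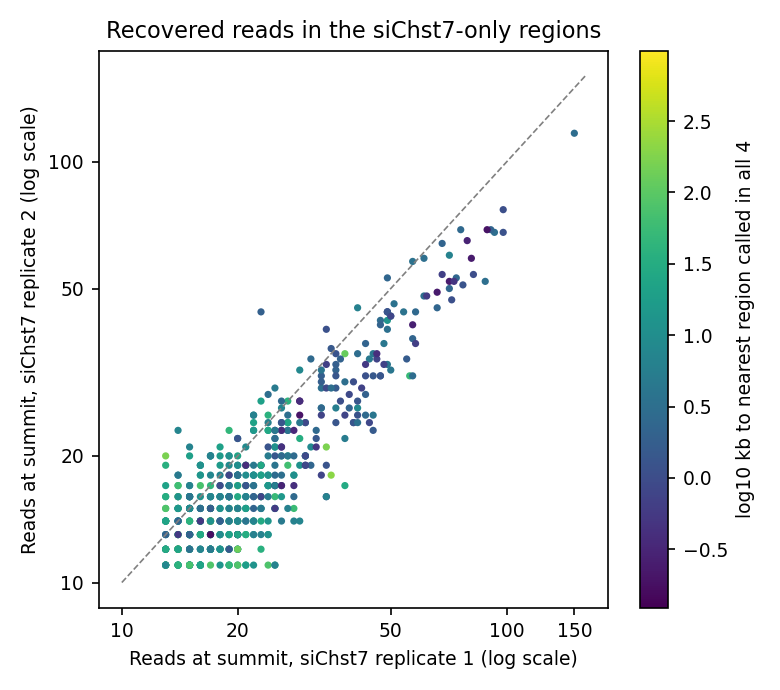
Reads recovered at the summit of each of the 541 regions in siChst7 replicate 1 (horizontal axis) and replicate 2 (vertical axis), both on log scales; the dashed line marks equal numbers and the colour gives the log10 of the distance in kb to the nearest region called in all 4 libraries. Most points lie below the line, with medians of 20 and 16 reads, and the points with over 50 reads are mostly dark, which means close to a shared region.

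Replicate 1 had more reads at the summit in 442 of the 541 regions, beside relative read densities of 1.02 and 0.757. The fold enrichment, which each library takes against its own background, was higher in replicate 1 in 239. Across the 541 regions the −log10 q values of the 2 libraries had a Spearman rho of 0.454, given as a description, since both values share the lower limit of 5. The widest disagreement in reads towards replicate 2 was at a region 27.4 kb from Pigm (chr1:172411495-172412480), a gene of GPI anchor synthesis, with 23 and 44 reads. There the summits lay 827 bp apart, so the 2 peaks overlap without sharing a summit; this region was picked after its values were seen.

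The summits of the 2 siChst7 peaks lay a median of 36 bp apart, and within 50 bp of each other in 320 regions (59.1%). The rule set no limit on this distance. It did ask for both peaks in the same merged region, so the choice itself keeps the summits near each other. Of the 5 other pairs of libraries, taken by the same rule, the median distance was between 26 and 33 bp and the share within 50 bp between 61.7% and 66.1%. For 4258 regions called in all 4 libraries with a −log10 q between 5 and 12 in both siChst7 libraries, the median was 55 bp and the share 47.5%. Among the 6 pairs, the siChst7 pair had the widest median distance and the lowest share. Its summits lay closer together than those of the weak regions called in all 4, but these 2 sets are not alike. The siChst7-only regions had no upper limit of −log10 q, and the shared ones were merged from peaks of all 4 libraries.

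The count itself was set beside the same count for every other pair of libraries. Called only in both siControl libraries were 1366 regions (1.51% of the 90202). The 2 other ways of setting 2 libraries against 2 mix the siRNAs. Replicates 1 of both siRNAs gave 882 regions (0.978%), and replicates 2 of both gave 317 (0.351%). The pair of siControl replicate 2 and siChst7 replicate 1 gave 1032 (1.14%), and the pair of siControl replicate 1 and siChst7 replicate 2 gave 292 (0.324%).

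The 541 siChst7-only regions thus fell between these counts. They were the most numerous of the 3 pairs that hold siChst7 replicate 2, the shallowest library, and fewer than in each of the 3 pairs that do not. Both sides together came to 1907 regions when the libraries were set against each other by siRNA, and to 1199 and 1324 in the 2 mixed arrangements. In each arrangement the side with siChst7 replicate 2 was the smaller, at 28.4%, 26.4% and 22.1% of the regions. With 2 libraries against 2 no exact permutation test can reach 0.05, so none was made. With each list shortened to its 66165 strongest peaks, the length of the shortest, 1076 regions were called only with siChst7 and 1363 only with siControl. The 2 counts came closer. This cut takes the weakest peaks from both siControl lists and none from siChst7 replicate 2, which can itself raise the siChst7-only count. The part of depth in the difference was not tested. Without siChst7 replicate 2 the rule gave 3113 siChst7-only against 2379 siControl-only regions, and without siChst7 replicate 1 it gave 1530 against 4807. Without siControl replicates 1 and 2 in turn it gave 1552 against 4091 and 1643 against 3765. The order of the 2 counts was reversed when siChst7 replicate 2 was left out. In each of these settings the group reduced to 1 library needed a call in that library alone, while the other group needed both. The 2 counts were then taken under unequal rules, and the cause of the reversal was not tested.

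**Figure D2:**
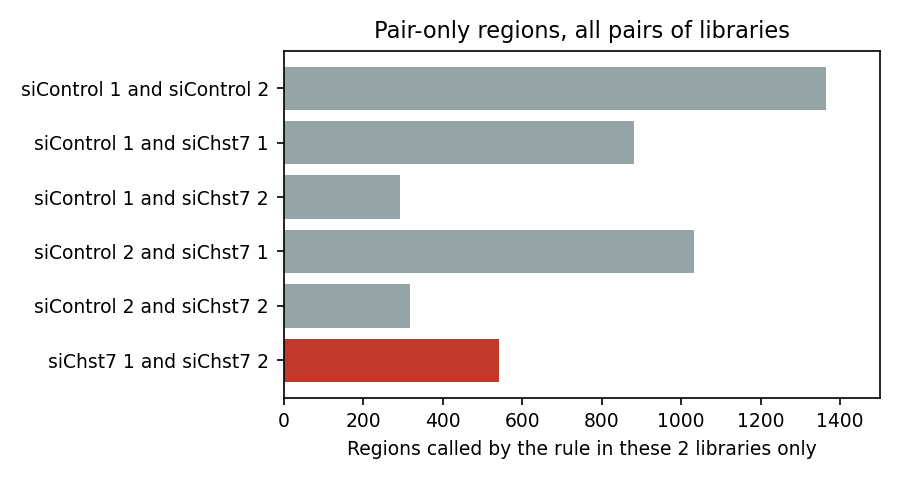
Number of regions called by the rule in 2 libraries and in neither of the others, for all 6 pairs of libraries; the bar of the siChst7 pair is red. It reaches 541, between 317 for replicates 2 of both siRNAs and 1366 for the siControl pair.

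A total of 1122 regions had a peak in both siChst7 libraries and none in siControl before width and strength were asked for. Of these, 393 failed on strength alone, 91 on width alone and 97 on both or through no single peak meeting both. Just inside the limit lay regions at Fgfr2, with −log10 q of 5.03 and 5.97 in replicates 1 and 2, Nod2, with 5.45 and 5.03, and Cux1, with 7.54 and 5.03. Just outside lay regions at Ppp2r5c, with 6.58 and 4.99, Tmprss2, with 5.99 and 4.97, and Rbms2, with 4.96 and 7.58. Seen the other way, 56363 regions met the rule in both siChst7 libraries, and 53724 of them had a peak in both siControl libraries, 2098 in one and 541 in neither.

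The regions lay mostly inside genes and away from gene ends. Over all 90202 regions, 50.0% lay inside a gene and 16.4% within 1 kb of a gene end, at a median distance of 14.2 kb. Of the 541, 320 (59.1%, exact 95% interval 54.9 to 63.3) lay within a protein-coding gene, and 156 of these 320 lay in a gene longer than 100 kb. The gene holding a region had a median length of 95.7 kb here, beside 91.0 kb over all regions. In the 5 other pairs this median was 83.4 to 105.4 kb. Of the 541, 25 (4.62%, 3.01 to 6.75) lay within 1 kb of where a protein-coding gene begins or ends. Over 1 to 10 kb away lay 140, over 10 to 50 kb 215, over 50 to 100 kb 84 and farther still 77. Neither in a gene nor within 100 kb of a gene end were 46. The counts beyond 1 kb stand here without the same counts over all regions. The median distance to a gene end was 24.2 kb (20.6 to 27.8). The intervals cover counting error only, as regions of the same libraries are not replicates.

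Regions called in all 4 libraries needed only a peak of any width and strength in each, a looser rule than that of the pairs. Among them, 22.0% lay within 1 kb of a gene end and 47.4% inside a gene, with a median distance of 11.9 kb. In the 5 other pairs the share within 1 kb was between 5.62% and 8.22%, and the interval of the siChst7-only regions overlapped that of each pair. Their share inside a gene was between 48.9% and 52.7%, against 59.1% here. The lower end of the interval for siChst7-only regions, 54.9%, lay above all 5 of these shares but inside the intervals of all 5 except siControl 2 and siChst7 2, whose interval ended at 54.5%. The median distance to a gene end was between 17.1 and 23.7 kb in those pairs. No test of these differences was made. When 200 bp windows around the summits replaced whole peaks, 881 regions were called and 13.4% lay within 1 kb of a gene end. A siControl peak then counted only by the window around its summit, so some of the 881 may lie under a siControl peak. The share thus depended on how overlap was defined. It was not recomputed in this way for the other pairs or for regions called in all 4.

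**Figure D3:**
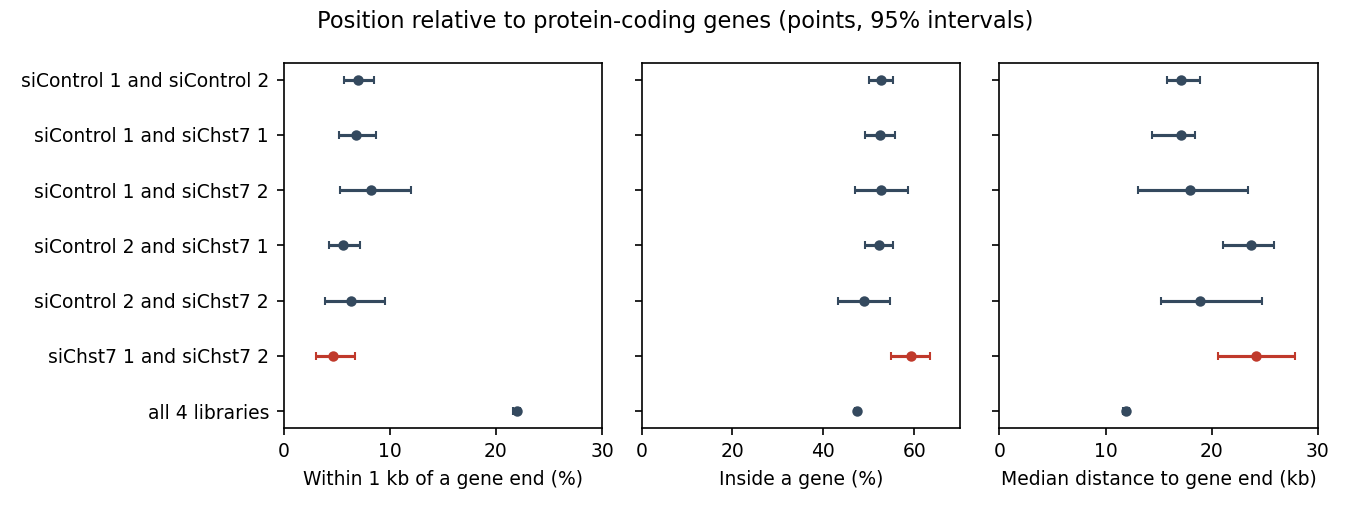
Share of regions at most 1 kb from a protein-coding gene end, share inside a protein-coding gene, and median distance to a gene end in kb, for the 6 pairs of libraries and for regions called in all 4; points are values over regions and bars are 95% intervals for counting error. All 6 pairs lie far from the 22.0% of regions called in all 4 on the left, and the siChst7 pair, in red, has the highest share inside genes at 59.1%.

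Most siChst7-only regions had a shared region in their neighbourhood. The nearest region called in all 4 libraries was a median of 8.18 kb away (7.29 to 9.14), within 1 kb for 50 regions, within 5 kb for 187, within 10 kb for 308 and within 50 kb for 496. It was over 100 kb away for 21. The median was 8.43 kb for siControl-only regions and between 6.58 and 9.94 kb for the 4 mixed pairs, a range that holds the siChst7-only value. A peak of at least 1 siControl library lay within 1 kb of 78 regions (14.4%), and within 200 bp of 9. In the 5 other pairs a peak of a library outside the pair lay within 1 kb of 11.6% to 16.1%.

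The 50 regions within 1 kb of a shared one differed in build from those far out, though both passed the same rule. Close to a shared region the median was 33 reads over a local background of 7.25 in replicate 1, and 24.5 reads over 4.94 in replicate 2. The 45 regions over 50 kb from a shared one had medians of 17 reads over 2.03, and 14 reads over 1.48, the genome-wide background. The caller asks for more reads where the local background is higher. At Zfp703, a zinc finger gene, the region (chr8:26974157-26974457) lay 0.194 kb from a shared one and held 89 and 69 reads over 41.9 and 32.1. The fold enrichment was no more than 2.10 and 2.11.

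The closest neighbour of all was at Mpp3, which encodes a scaffold protein of cell junctions, at 0.123 kb (chr11:102026723-102027197), with 29 and 27 reads. Next came a region in the gene-poor stretch beyond Lrriq3 at 0.172 kb (chr3:155466376-155466644) with 17 and 13 reads, and one inside Jak1 at 0.195 kb. At the other extreme, a region 8.90 kb from the vomeronasal receptor gene Vmn2r72 (chr7:85763877-85764106) had no shared region, and no siControl peak, within 984.1 kb. It held 17 and 14 reads over the genome-wide background. The regions next in distance lay 212.3 kb from Snurf, an imprinted gene (chr7:59769823-59770149), at 474.1 kb from a shared region, and 464.2 kb from Depdc1a (chr3:159030767-159031196), at 443.7 kb. Both nevertheless had a siControl peak within 1 kb, so their distance shows a lack of regions called in all 4 libraries, not of calls. The one beyond Tfec (chr6:16671385-16671633), at 381.4 kb, had none within 220.2 kb.

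**Figure D4:**
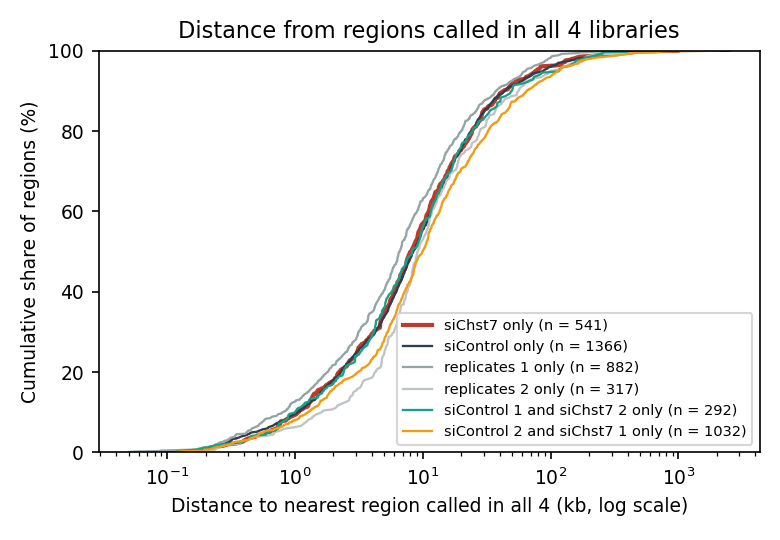
Cumulative share of regions, in percent, against the distance in kb (log scale) to the nearest region called in all 4 libraries, one line per pair of libraries. The red line of the 541 siChst7-only regions runs among the other 5, with a median of 8.18 kb beside 8.43 kb for the siControl pair.

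The strongest of the 541 were ranked by the lower of their 2 −log10 q values. At the top stood the region 0.387 kb outside Tmem145 (chr7:25304744-25305113), with 71 reads in replicate 1 and 60 in replicate 2. The fold enrichment was 11.8 in both and the summits fell on the same base. The siControl libraries had peaks 1.18 and 1.15 kb away, and none over the region. The second lay inside Lamc3, which encodes a gamma chain of laminin, a basement membrane protein (chr2:31917577-31918002), with 68 and 64 reads over a background of 8.52 and 6.73. Lamc3 with its flanks of 5 kb held 9 regions, 8 of them called in all 4 libraries, so this was the sole region there that was not shared by all.

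The third was a region 8.36 kb from Ces1a, a carboxylesterase gene (chr8:93011472-93011851), with 49 and 44 reads, 0.708 kb from a shared region. The fourth, inside Ccdc124 (chr8:70869547-70869786), held the most reads of all members, 150 and 117, over the high local background of 37.1 and 28.9, so that its fold was 3.97 and 3.94. The fifth lay 5.98 kb from Mgme1, the gene of a nuclease that maintains mitochondrial DNA (chr2:144287209-144287441), with 49 and 42 reads. The sixth, 127.9 kb from the kinesin gene Kif26a (chr12:112309675-112309985), lay 121.5 kb from a region called in all 4 libraries, with siControl peaks 11.9 and 12.01 kb away, and had 38 and 35 reads, a fold of 12.9 and 12.4. Over the whole group the upper quartiles of fold were 6.33 and 6.45.

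The seventh, 19.1 kb from the protein kinase gene Prkx (chrX:77741508-77741843), had the highest fold of any member in replicate 1, at 18.1, from 56 reads. In replicate 2 it had 31 reads. Places 8 to 12 lay inside Phf20, a reader of histone marks (44 and 34 reads), inside Adk, adenosine kinase (47 and 31), inside Smarcc1, a core subunit of the SWI/SNF remodelling complex (43 and 37), inside Apaf1, which forms the apoptosome (49 and 44), and 38.0 kb from the aminopeptidase gene Aopep (41 and 26). At Phf20 (chr2:156208000-156208570) a peak of siControl replicate 1 began only 0.142 kb away, and one of replicate 2 at 0.422 kb. At Smarcc1 (chr9:110228669-110228989) siControl replicate 2 had a peak at 0.462 kb. The −log10 q was at least 20 in both libraries for 12 members, those named here, and at least 10 in both for 114.

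The 25 regions within 1 kb of a protein-coding gene end fell at genes of mixed function. After Tmem145 the strongest was inside Snx1, a sorting nexin of the retromer that recycles membrane proteins (chr9:66088497-66088857), 0.370 kb from the gene end, with 30 and 24 reads. It was followed by a region 0.146 kb outside the olfactory receptor gene Olfr1387 (chr11:49460762-49461255) with 26 and 20 reads, the sole region at that gene. The one 0.591 kb outside Psmc3, a proteasome ATPase gene (chr2:91052919-91053425), held 79 and 65 reads over a background of 28.3 and 20.8, and lay 0.288 kb from a shared region. Its summits in the 2 libraries lay 389 bp apart, so these reads were not stacked at the same place. Ccr1 came next, then LOC115486543, with 18 and 16 reads.

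Inside Pvr, which encodes a cell adhesion receptor, the region (chr7:19903816-19904224) held 21 and 16 reads. Over an end of Cpt1c, a carnitine palmitoyltransferase gene of the brain (chr7:44958329-44958659), 25 and 29 reads were recovered, more in the shallower library. Toe1, an RNA exonuclease gene, had 57 and 41 reads, at a fold of only 3.23 in both (chr4:116806564-116806830), with a shared region 0.272 kb away. Lce1f, a gene of the skin's cornified envelope, had 16 and 18 reads over one end (chr3:92720194-92720606), and no other region within 5 kb. Some gene-end regions thus stood at genes with no shared region within 5 kb, as at Ccr1, Olfr1387 and Lce1f, and others beside a shared peak, as at Psmc3 and Toe1.

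Further down, Jak1, the kinase of interferon and cytokine receptors, had a region inside the gene 0.509 kb from its end (chr4:101264412-101264773) with 29 and 25 reads, 0.195 kb from a shared one. The summits of its 2 peaks lay 198 bp apart. Hdac5, a class II histone deacetylase that binds MEF2 factors, had one 0.483 kb inside its end (chr11:102229391-102229689) with 46 and 35 reads over 16.4 and 11.6, and a shared region at 0.396 kb. Znrf3, a ubiquitin ligase that removes Wnt receptors, had 30 and 24 reads at 0.935 kb from its end (chr11:5443645-5443912). The chemokine gene Ccl17 had 32 and 23 reads at 0.257 kb (chr8:94809637-94810029), with the 2 summits 205 bp apart. The rest of the 25, among them those at Vash1, Mpp3, Zfp729b, Padi6, 1700029F12Rik, Obp2b, Nub1, Idi2, 2410004B18Rik and Nod2, had −log10 q between 5.03 and 12.6. Of 521 members on chromosomes with listed start sites, 11 lay within 1 kb of the listed start site of a protein-coding gene. Start sites of non-coding genes, such as Gm35048 and Gm16907, were not counted here.

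Genes were also grouped by lists for heart, fibroblast, matrix and signalling functions and for other cell types. A region counted for a list when it lay inside a gene of the list or when the nearest gene end, within 100 kb, belonged to one. Over all 14 lists, with 325 genes, 21 of the 541 regions counted (3.88%), against 56 of the 1366 siControl-only regions (4.10%) and 2.96% of all 90202 regions. The counts per list were small, so each is given with its members and no list is set apart from the others.

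The 59 heart genes had 6 siChst7-only regions, each at another gene (1.11% of the 541), against 13 siControl-only regions (0.952% of the 1366) and 0.491% of all regions. Inside Myom1, an M-band protein of the sarcomere, 33 and 25 reads were recovered (chr17:71090973-71091205), 0.743 kb from a shared region. Near Xirp2, an actin-binding protein of muscle, 27 and 23 reads lay 4.19 kb from the gene (chr2:67441438-67441811). Inside Cacnb2, a calcium channel subunit, there were 20 and 16 (chr2:14633239-14633497), with a siControl replicate 2 peak 0.447 kb away. Actn2, the alpha-actinin of the Z-disc, had 17 and 17 reads 2.57 kb inside its end (chr13:12337900-12338158), and here the closest siControl peak was 40.9 kb off.

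The other two heart genes stood near the limit of strength. The natriuretic peptide gene Nppb, a marker of heart stress, had 16 and 11 reads at 16.1 kb (chr4:147969204-147969710) with −log10 q of 8.08 and 5.17. Corin, the protease that activates natriuretic peptides, had 23 and 12 reads inside the gene (chr5:72491870-72492280) with 10.8 and 5.13. Cacnb2 also had a siControl-only region, and the genes of the other siControl-only regions were Ankrd1, Gata5, Jph2, Kcnq1, Myl2, Myl4, Popdc2, Ppara, Ppargc1a and Ryr2. No siChst7-only region counted for Mef2c, Gata4, Tbx5 or Myh6.

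Of the 28 fibroblast genes 2 had a siChst7-only region, and 7 siControl-only regions counted for this list. These are 0.370% of the siChst7-only and 0.512% of the siControl-only regions, beside 0.258% of all regions. Ly6a, the surface marker Sca-1, had 40 and 30 reads at 2.57 kb from the gene (chr15:75000599-75000821), over a local background of 6.65 and 4.34. Ddr2, a collagen receptor of fibroblasts, had 16 and 15 reads inside the gene (chr1:170039003-170039746). Of the 15 regions at Ddr2 and its flanks, 11 were called in all 4 libraries. For smooth muscle genes the count was 1, inside the gamma smooth muscle actin gene Actg2 (14 and 15 reads), against 4 siControl-only. The shares were 0.185% and 0.293%, beside 0.0787% of all regions.

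The 45 genes that build and sulfate glycosaminoglycans, heparan sulfate as well as chondroitin, had 3 siChst7-only regions (0.555% of the 541). They had 6 siControl-only ones (0.439%), beside 0.395% of all regions. Both genes with a siChst7-only region act on the sugar chains of proteoglycans, as the choice of the list requires. Chst12, a chondroitin sulfotransferase like Chst7, had 93 and 68 reads over 30.5 and 24.1 at 3.36 kb from the gene (chr5:140501768-140502211), 3.06 kb from a shared region. Glce, the epimerase of heparan sulfate, had 2 such regions. One lay inside the gene (chr9:62114707-62114983) with 26 reads in both libraries. The other lay 29.5 kb beyond it (chr9:62152089-62152482) with 17 and 12. Of the 5 regions at Glce and its flanks only 1 was called in all 4 libraries.

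Among the 28 genes of proteoglycan cores and hyaluronan, 3 had a siChst7-only region (0.555% of the 541), and 3 siControl-only regions lay at other genes (0.220% of the 1366), beside 0.192% of all regions. They were the heparan sulfate proteoglycans Gpc6 (19 and 15 reads inside the gene, chr14:117058767-117059155), Sdc1 (20 and 19 reads, 60.7 kb away) and Gpc4 (14 and 11 reads inside the gene, chrX:52125299-52125640). The Gpc6 region lay 130.0 kb from any shared region, inside a gene of 1055 kb. The laminin and integrin list, with 30 genes, had regions at Lamc3, at the laminin alpha chain gene Lama4 (22 and 14 reads, 2.09 kb away) and at Itgb3, an integrin beta subunit (22 and 17 reads, 2.99 kb away). Its 3 regions were 0.555% of the 541, its 4 siControl-only regions 0.293% of the 1366, and 0.381% of all regions counted for it.

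Of 28 Wnt genes 3 had siChst7-only regions (0.555%), and 7 siControl-only regions counted (0.512%), beside 0.299% of all regions. Tcf7l2, a transcription factor at the end of the pathway, had 45 and 23 reads inside the gene (chr19:55867864-55868274), where the fold fell from 9.09 in replicate 1 to 6.23 in replicate 2. The co-receptor gene Lrp6 had 13 and 14 reads at 8.39 kb, and the ligand gene Wnt7b had 19 and 17 inside the gene, with siControl peaks 0.334 and 0.316 kb away. The 31 genes of TGF-beta and BMP signalling and the 23 of YAP, TEAD and AP-1 had 0 siChst7-only regions, against 7 and 2 siControl-only ones. Of all 90202 regions, 0.377% and 0.221% counted for these lists. The lists of skeletal muscle, endothelial, immune, neural and epithelial genes had 0 as well, with 1, 1, 0, 2 and 1 siControl-only regions. In the same order, 0.0532%, 0.0809%, 0.0299%, 0.0765% and 0.0466% of all regions counted for them, so these lists take few regions of any kind.

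**Figure D5:**
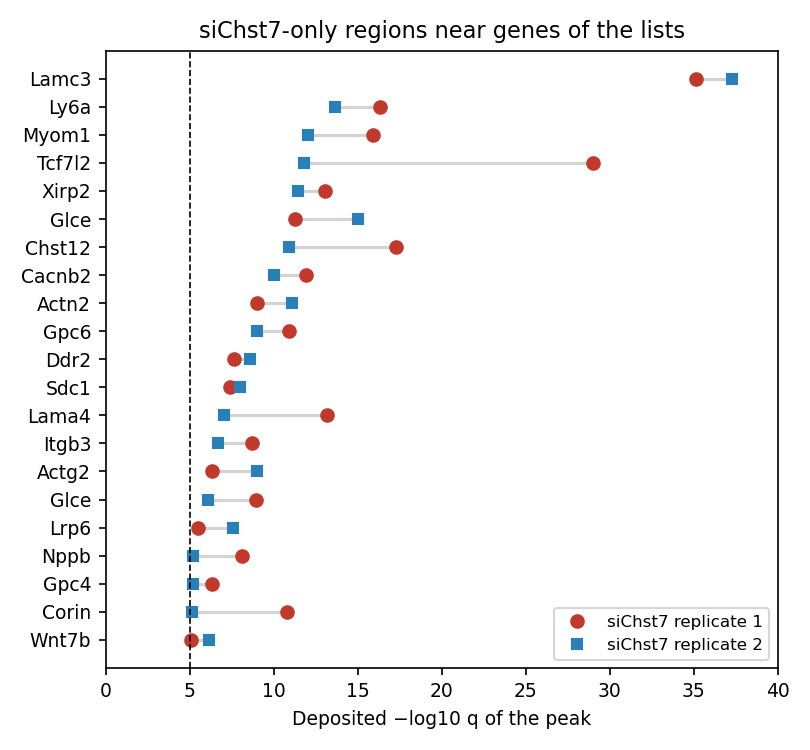
Deposited −log10 q of the peak in siChst7 replicate 1 (circles) and replicate 2 (squares) at the 21 regions that counted for a gene list, ordered by the lower value; the dashed line marks the limit of 5. Lamc3 stands apart with 35.1 and 37.3, and the values of Nppb, Gpc4, Corin and Wnt7b come close to the limit in one library.

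A total of 6 genes held 2 members each, among them Cux1, Lpp, Ptprk, Spop and Stk38l. The first 3 of these are long, between 319.5 kb for the homeobox gene Cux1 and 599.2 kb for Lpp, which encodes a protein of focal adhesions. The Cux1 regions held 18 and 13 reads and 26 and 17 reads, and the Lpp regions 43 and 25 reads and 13 and 14 reads. In the receptor phosphatase gene Ptprk both regions lay side by side (chr10:28303868-28304243 and chr10:28304557-28304977) at 129.9 and 130.6 kb from a shared region, with 20 and 12 reads and with 16 and 14. Spop, an adaptor of a ubiquitin ligase, had 19 and 20 reads and 24 and 21 reads, and the kinase gene Stk38l had 19 and 16 reads and 14 and 16 reads. Otherwise the members were scattered. Of 521 gaps between neighbouring members on a chromosome, 2 were at most 10 kb and 17 at most 100 kb.

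All 20 chromosomes examined held members, from 9 on X to 50 on chromosome 2. As a share of the regions on the chromosome, members ranged from 0.379% on chromosome 17 to 0.789% on chromosome 3, around the 0.600% of the whole.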

How the data were processed

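ATAC-seq peaks of 4 libraries were analysed, 2 with siControl and 2 with siChst7. Bowtie, MACS3, HOMER, bedtools, SAMtools and mm10 are listed, per the submitters' processing notes; for versions and duplicate or mitochondrial filtering, nothing was given in the sources used here. Peak names point to 1 alignment each, so the authors called peaks per library. The score deposited by the authors is 10 times the −log10 q; the fold enrichment they deposited is a ratio of the summit pileup to the local background; the deposited −log10 p and −log10 q are those of the summit, with q at most 0.01.

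Chromosomes 1 to 19 and X were used; 86 to 103 peaks per library lay elsewhere. Summit reads and local background were obtained from fold and p by the caller's formulas, fold being (reads + 1) over (background + 1) and p the Poisson upper tail. Of peaks with −log10 q under 8, 33.1% to 45.8% fell on whole reads (within 0.001) at the genome-wide background, and p matched within 0.02 for 99.3% to 99.8% of those. Relative read density is the background divided by the narrowest peak of the library, 180 to 189 bp. Gene positions came from RefSeq (GRCm38.p6), with 21631 protein-coding genes and no exons, so distances are to the nearer gene end and intronic regions are not separated from exonic ones; 17274 of these genes have a listed start site, and start sites on chromosome 18 were not used here. All 325 list genes matched. No genome sequence was used beyond the listed promoters.

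Shares have exact Clopper-Pearson 95% intervals and medians binomial order-statistic ones. No test was made. Named were the 12 strongest regions by the lower −log10 q, the 10 strongest within 1 kb of a gene end, all at list genes, genes with 2 members, the 4 nearest to and farthest from a region called in all 4, and 3 on each side of the strength limit; others were picked after their values were seen. The values of some named regions are not reported here. The members and lists were chosen with earlier results of these data known. Merging, selection and the solved reads were checked on simulated data. Alternatives in width, strength, overlap, list length and libraries are given in the closing section. Analyses used Python 3.11.15, numpy 2.4.6, pandas 2.3.3 and scipy 1.17.1.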

Additional observations from a re-analysis of the deposited data

How the results depend on the processing

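The number of siChst7-only regions, 541, depended on the rule by its construction. It was 292 with peaks of at least 250 bp, 934 with no minimum of −log10 q, 114 with at least 10, 881 with 200 bp windows around summits, and 1076 with lists of equal length; siControl-only regions numbered 767, 2013, 485, 1775 and 1363 in the same order. With summit windows a region may lie under a siControl peak whose own window did not overlap it. Leaving out 1 library at a time gave 1530 to 3113 regions. The lowest was without siChst7 replicate 1 and the highest without siChst7 replicate 2, with 1552 and 1643 without siControl replicates 1 and 2, as fewer libraries had to meet the rule. The share within 1 kb of a gene end, 4.62%, was 13.4% with summit windows (the cause was not tested), 9.80% with a window of 2.5 kb and 10.4% with genes of all kinds, and 5.15% to 5.49% with 1 library left out; it kept within its interval under the other alternatives. The share inside a gene, 59.1%, was 67.8% with genes of all kinds and 54.7% to 56.5% with 1 library left out, the lowest without siControl replicate 2. The median distance to a region called in all libraries, 8.18 kb, was 9.68 kb with peaks of at least 250 bp, 6.82 kb with a −log10 q of at least 10, and 6.66 to 8.62 kb with 1 library left out. Leaving out regions with a siControl peak within 1 kb, an alternative chosen after seeing the data, gave 463 regions and a median of 9.28 kb, which the omission itself raises.

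No test was made, so there is no paired fit; replicate numbers enter only through the mixed arrangements. The relative read density was lowest in siChst7 replicate 2, at 0.757, and its part in the counts was not tested. Reads in siControl over the members were not measured.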
